A study of Mus musculus with 65 samples.

Results

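Non-neuronal single cells of the embryonic mouse cortex were split by the transcript of cyclin B1, the gene Ccnb1, and the rest of the transcriptome was compared between the resulting groups. Cells were chosen by their own counts. A cell was kept when its library held at least 1000000 reads in genes and when Neurod6, Tbr1 and Dlx5, which mark excitatory neurons and interneurons, were each below 10 CPM (reads of a gene per 1000000 reads in all genes of that cell). A kept cell was Ccnb1-positive at 10 CPM or more of Ccnb1 and Ccnb1-negative below that level. The rule kept 30 of 65 cells, of which 19 were Ccnb1-positive and 11 were Ccnb1-negative. Of the 35 others, 3 had too few reads and 32 had a neuronal gene at the level.

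Both groups came from 1 source. The embryos were C57BL/6J at E13.5, the tissue was the cortical hemispheres after removal of the ganglionic eminences, and the brains of every embryo were combined before dissociation. Single cells that excluded propidium iodide, a stain of dead cells, were sorted into the lysis buffer of the SMARTer Ultra Low RNA kit, which makes full-length cDNA from polyA RNA without molecular identifiers. The groups carry no treatment or allele and were split only by the measured Ccnb1 value. They also differed in title sets, depth and the number of expressed genes, as given below. The labels call every cell a neural progenitor cell and name no animal, so each group is 1 pooled sample and no test was made from its cells. All spreads below are between cells. The titles number the cells in 3 sets that the labels do not explain. The Ccnb1-positive cells fell 9, 2 and 8 in title sets 1, 2 and 3, and the Ccnb1-negative cells 2, 2 and 7.

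Cyclin B1 binds the kinase Cdk1, and the pair drives entry into mitosis. Its mRNA builds up through S phase and G2, and the anaphase-promoting complex marks the protein for destruction when chromosomes separate. In the cortical wall at this age, apical progenitors with Sox2 and Pax6 divide at the ventricle and give rise to neurons directly or through intermediate progenitors with Eomes. Many genes of mitosis share promoter elements. The cell cycle genes homology region (CHR) binds the DREAM complex, which represses them in resting cells, and CCAAT boxes near it bind NF-Y.

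The promoters of Ccnb1 and of 5 mitosis genes that were higher in Ccnb1-positive cells are shown because they display these elements and their variety. Capitals mark CHR letters (TTTGAA or TTCGAA) and CCAAT boxes (CCAAT) on either strand, counted with overlaps. The sequences are from RefSeq on GRCm38.p6, matched by gene symbol, and run 5′ to 3′ on the gene's strand from 250 bases before the start of transcription to 50 after it. They lie at chr13:100786437-100786736 (minus strand) for Ccnb1, chr7:135716330-135716629 (minus strand) for Mki67, chr11:99024140-99024439 (minus strand) for Top2a, chr2:127831810-127832109 (minus strand) for Bub1, chr7:122159185-122159484 (plus strand) for Plk1 and chr3:135212313-135212612 (plus strand) for Cenpe.
Ccnb1: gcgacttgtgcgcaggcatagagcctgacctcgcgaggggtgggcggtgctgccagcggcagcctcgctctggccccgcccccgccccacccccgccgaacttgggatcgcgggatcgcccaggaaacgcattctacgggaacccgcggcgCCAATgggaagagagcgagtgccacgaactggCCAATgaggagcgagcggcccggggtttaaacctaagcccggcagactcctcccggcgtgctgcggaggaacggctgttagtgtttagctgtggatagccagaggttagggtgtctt
Mki67: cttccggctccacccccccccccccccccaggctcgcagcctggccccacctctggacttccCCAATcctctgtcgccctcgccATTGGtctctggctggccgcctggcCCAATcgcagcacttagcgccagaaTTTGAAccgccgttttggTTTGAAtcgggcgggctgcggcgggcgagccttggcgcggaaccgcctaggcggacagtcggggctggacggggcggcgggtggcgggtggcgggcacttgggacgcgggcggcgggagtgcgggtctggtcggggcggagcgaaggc
Top2a: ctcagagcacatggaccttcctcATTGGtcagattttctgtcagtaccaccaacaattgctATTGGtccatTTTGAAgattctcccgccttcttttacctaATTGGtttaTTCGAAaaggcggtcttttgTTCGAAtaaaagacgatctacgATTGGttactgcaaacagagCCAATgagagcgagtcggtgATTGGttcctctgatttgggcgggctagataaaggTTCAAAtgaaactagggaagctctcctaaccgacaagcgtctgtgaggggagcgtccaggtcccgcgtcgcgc
Bub1: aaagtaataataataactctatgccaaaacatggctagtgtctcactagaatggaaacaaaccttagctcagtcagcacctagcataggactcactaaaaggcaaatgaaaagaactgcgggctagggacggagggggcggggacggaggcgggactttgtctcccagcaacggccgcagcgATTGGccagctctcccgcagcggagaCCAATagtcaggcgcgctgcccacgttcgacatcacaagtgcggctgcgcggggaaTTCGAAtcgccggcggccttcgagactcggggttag
Plk1: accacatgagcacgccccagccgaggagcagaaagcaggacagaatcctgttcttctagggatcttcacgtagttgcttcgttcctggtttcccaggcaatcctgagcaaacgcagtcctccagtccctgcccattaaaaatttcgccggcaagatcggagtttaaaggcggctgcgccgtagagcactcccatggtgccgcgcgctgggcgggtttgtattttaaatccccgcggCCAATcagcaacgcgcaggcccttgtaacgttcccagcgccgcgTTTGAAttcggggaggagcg
Cenpe: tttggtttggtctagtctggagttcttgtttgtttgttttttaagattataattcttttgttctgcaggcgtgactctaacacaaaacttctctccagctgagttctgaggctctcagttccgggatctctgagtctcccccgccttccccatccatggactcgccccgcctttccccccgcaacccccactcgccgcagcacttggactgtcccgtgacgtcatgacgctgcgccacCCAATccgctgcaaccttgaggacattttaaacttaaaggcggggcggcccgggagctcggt
In this window Ccnb1 held 2 CCAAT boxes and no CHR letters. Mki67, the gene of the proliferation antigen Ki-67, held 2 CHR matches and 3 CCAAT boxes. Top2a, the topoisomerase that untangles sister chromosomes, held 4 and 6. Bub1, a kinase of the spindle checkpoint, held 1 CHR match 14 bases after the start and 2 CCAAT boxes. Plk1, a kinase of mitotic entry, held 1 of each, and the kinetochore motor gene Cenpe held 1 CCAAT box and no CHR letters. A match describes letters only and is not a site of binding.

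Over the mitosis lists, with Ccnb1 among them, 93 of 110 genes had a promoter in the table and 59 of the 93 (63.4%) held CHR letters. The share was 14% of the 6002 compared genes with a promoter and 19.2% of all 32851 promoters. CCAAT boxes stood in 65.6% of the mitosis promoters and in 40.5% of the compared genes. The E2F letters TTTCGCGC or TTTGGCGC stood in 21.6% of 51 promoters of the replication lists, against 1.97% of the compared genes. These shares describe the genes and not the cells. Of the genes that were higher in Ccnb1-positive cells but stood in no mitosis or replication list, 13.4% of 359 promoters held CHR letters, close to the share of all compared genes.

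Ccnb1 itself had 11.4 CPM in the lowest, 384 in the median and 2237 in the highest Ccnb1-positive cell, against 0.0540, 0.123 and 0.398 CPM in the Ccnb1-negative cells. These values chose the groups and are given without a test. The Ccnb1-negative cells held 1 to 9 reads of Ccnb1 each, and the Ccnb1-positive cells 137 to 45744. Just inside the level stood set 2 cell 25 at 11.4, set 3 cell 29 at 13.7 and set 3 cell 39 at 48.8 CPM. Just outside stood set 3 cell 45 at 0.398 and set 3 cell 44 at 0.310 CPM, so that a level of 5 CPM gave the same groups. The neuronal genes also left a gap: the highest value in a kept cell was 1.34 CPM of Tbr1 and the lowest that removed a cell was 22.6 CPM of Dlx5. Ccnb1-positive cells made up 63.3% of the kept cells (exact 95% interval 43.9 to 80.1%, counting error only), namely 9 of 11 in title set 1, 2 of 4 in the next and 8 of 15 in the last.

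Depth and the number of expressed genes moved with the groups. Ccnb1-positive cells had 11222299 to 32130629 reads in genes (median 20451967), against 7672145 to 26846805 (median 13928479) in Ccnb1-negative cells. Genes with any read had medians of 6386 in Ccnb1-positive and 6333 in Ccnb1-negative cells. Genes at 10 CPM or more numbered 1783 to 3832 (median 3121) in Ccnb1-positive cells and 1712 to 3146 (median 2223) in Ccnb1-negative cells. In 18 of 19 Ccnb1-positive cells that number was above the median of the Ccnb1-negative cells, though the ranges overlap. The median was 3414 in Ccnb1-positive and 3112.5 in Ccnb1-negative cells of title set 1. It was 3229.5 in Ccnb1-positive and 2392 in Ccnb1-negative cells of set 2, and 2523.5 in Ccnb1-positive and 2209 in Ccnb1-negative cells of set 3. Whether cells in one group held more RNA, or gave more of it to the library, cannot be told apart.

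Over 7937 genes with a mean of at least 10 CPM in the kept cells, the difference is the mean log2(CPM + 1) of Ccnb1-positive minus that of Ccnb1-negative cells. The scale understates the change of low genes. Its median over all genes was 0.52 and 67.1% of genes had a positive difference, so a list is read against that median. A gene was counted as higher or lower when the difference was at least 2 in size and had the same sign within each title set that holds 2 or more cells of each group. By this rule 517 genes (6.51%) were higher and 62 (0.781%) were lower in Ccnb1-positive cells. Without Ccnb1-negative set 2 cells 16 or 19, 101 or 124 genes were lower, and title set 2 was then out of the sign rule. With the all-gene median taken off every difference the numbers were 285 higher and 133 lower, a choice made after seeing the data. With trimmed-mean scaling (TMMwsp) they were 406 and 88, and the all-gene median was 0.39. With only the 10 Ccnb1-positive and 10 Ccnb1-negative cells in the range of expressed genes that both groups share (1783 to 3146), also chosen after seeing the data, they were 502 and 267, and that median was 0.17. Title set 2 then held fewer than 2 Ccnb1-positive cells and was out of the sign rule.

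The genes of mitosis were higher in Ccnb1-positive cells as a broad group. Of 100 compared genes in 5 lists, 28 were higher by the size rule (background 6.51%) and 0 were lower, near the background of 0.781%. Of the 100, 94 had a positive difference, and the median was 1.91 against 0.52 over all genes. By list, 9 of 21 genes of the spindle and its motors were higher (median 2.03), 7 of 20 of the chromosomal passenger complex and of condensation (2.01), 5 of 17 mitotic cyclins and kinases (1.95), 2 of 20 of the anaphase-promoting complex and its targets (1.81) and 5 of 22 of the kinetochore and centromere (1.37). The 28 became 17 with the all-gene median taken off, 53 at a Ccnb1 level of 50 CPM, 8 with a pseudocount of 10, 12 with a size rule of 3 and 4 by a share of cells 50 points apart, when 285, 797, 118, 162 and 68 of all genes were higher. Without Ccnb1-positive set 2 cell 25 and Ccnb1-negative set 2 cell 19 it became 45 and 44, when 733 and 734 of all genes were higher. At 50 CPM and without either of these cells, title set 2 was out of the sign rule. Each list's median stayed above the all-gene median with TMMwsp scaling and in the cells that share a range of expressed genes. Without the cells that held Eomes, a choice made after seeing the data, the kinetochore median was 0.92 against an all-gene median of 0.77. That choice kept 17 Ccnb1-positive and 5 Ccnb1-negative cells, and no Ccnb1-negative cell of title set 1.

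Mki67 had 0, 309 and 742 CPM in the lowest, median and highest Ccnb1-positive cell, against 0, 0.0885 and 78.0 CPM in Ccnb1-negative cells. It reached 10 CPM in 14 of 19 Ccnb1-positive and 2 of 11 Ccnb1-negative cells, with a difference of 5.07 and the same sign in every title set. Most Ccnb1-positive cells lay above every Ccnb1-negative cell, but 5 of them held almost none. Top2a had 0.0557, 252 and 1359.5 CPM in Ccnb1-positive cells and 0, 4.47 and 187 CPM in Ccnb1-negative cells, a difference of 3.57. The groups overlap, since 4 of 11 Ccnb1-negative cells were at 10 CPM or more. At least one of Mki67 and Top2a was at 10 CPM in 17 of 19 Ccnb1-positive and 4 of 11 Ccnb1-negative cells.

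Of the 100 mitosis genes, 16 were at 10 CPM in no Ccnb1-negative cell, near the 12.5% of all compared genes. With at least 6 Ccnb1-positive cells at that level, a number chosen after seeing the values, they were 11, against 2.14% of all compared genes. Such genes pass the filter of mean CPM only through the Ccnb1-positive cells, so these counts describe and support nothing. Of the 11, 7 are described here. Cenpe was at 10 CPM in 13 of 19 Ccnb1-positive cells (0, 30.4 and 1331 CPM) and in 0 of 11 Ccnb1-negative cells (0, 0.0426 and 6.15 CPM), a difference of 4.51. Kif20a, a motor of the central spindle, was at 10 CPM in 10 of 19 Ccnb1-positive cells (0, 15.4 and 389 CPM) and in 0 of 11 Ccnb1-negative cells (0, 0 and 0.0718 CPM), a difference of 3.64. Bub1b, the checkpoint protein BubR1, was so in 9 Ccnb1-positive and 0 Ccnb1-negative cells. Spc25 of the Ndc80 complex was so in 9 Ccnb1-positive cells, Bub1 and Kif23 in 7 each and Plk1 in 6, and none of them in any Ccnb1-negative cell. With 11 cells, 0 still allows a share of up to 28.5% (exact 95% interval). Each of the 7 was at the level in part of the Ccnb1-positive cells.

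Other regulators had larger values in Ccnb1-positive cells without a clean split. Ccna2, the cyclin of S phase and G2, was at 10 CPM in 10 of 19 Ccnb1-positive and 1 of 11 Ccnb1-negative cells, a difference of 3.22. Cdk1, the partner of cyclin B1, was so in 11 Ccnb1-positive and 4 Ccnb1-negative cells, a difference of 2.42. Birc5, the passenger protein survivin, had medians of 394 CPM in Ccnb1-positive and 4.91 CPM in Ccnb1-negative cells and a difference of 3.72. Ccnb2, Cdc20 and Cdca8 had differences of 2.31, 2.95 and 4.56 but did not count as higher, since title set 2 gave differences of -5.04, -1.03 and -2.25. In that set, which holds 2 cells of each group, set 2 cell 19 was Ccnb1-negative and yet held 1229.5 CPM of Cdc20.

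**Figure D1:**
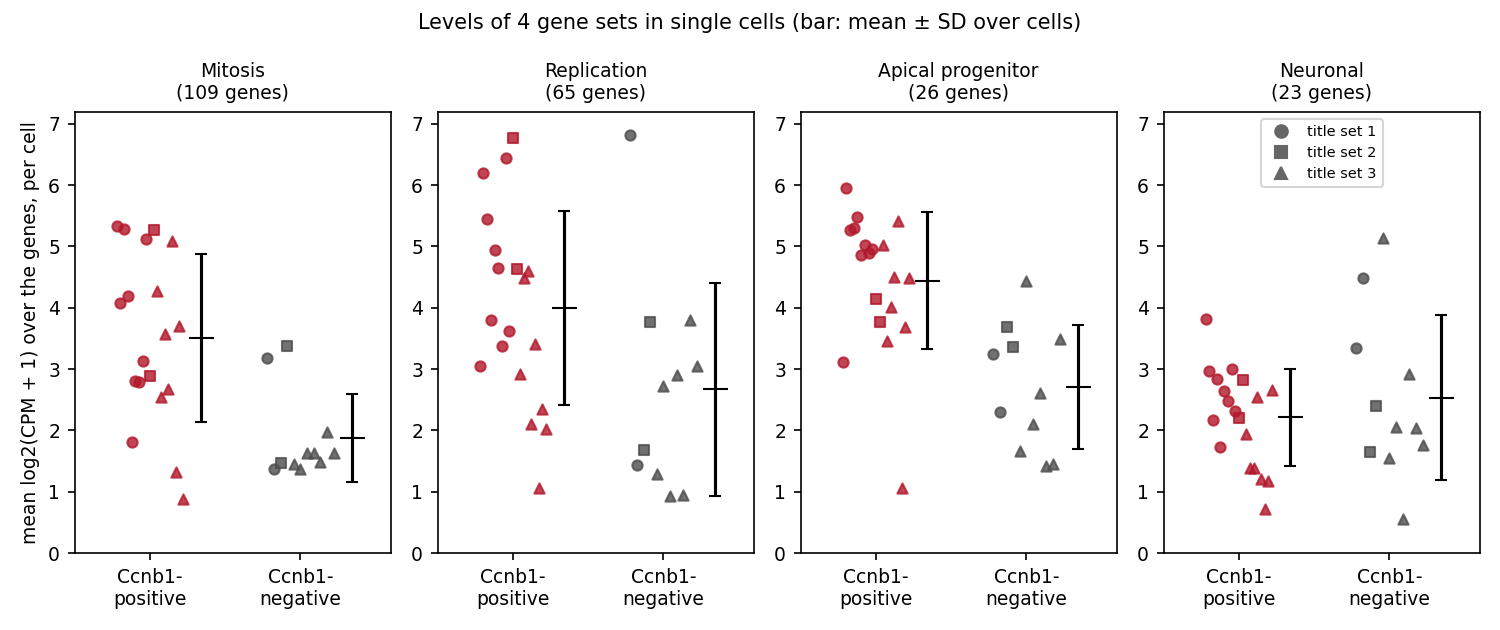
Mean log2(CPM + 1) over the genes of 4 sets in each cell (vertical axis), Ccnb1-positive cells left and Ccnb1-negative cells right in each panel; symbols mark title sets and bars give the mean ± SD over cells. In the mitosis panel 10 of 19 Ccnb1-positive cells lie above every Ccnb1-negative cell, while no Ccnb1-positive cell lies above every Ccnb1-negative cell in the replication and neuronal panels, where the Ccnb1-negative cells span the wider range.

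Per cell, the mean log2(CPM + 1) over 109 mitosis genes without Ccnb1 was 3.51 ± 1.37 in Ccnb1-positive and 1.87 ± 0.72 in Ccnb1-negative cells (SD over 19 and 11 cells), a difference of 1.64. The difference was 1.56, 1.66 and 1.41 within title sets 1, 2 and 3. Over the 30 kept cells the mitosis level went with the number of genes at 10 CPM (r = 0.61). That r was 0.52 in Ccnb1-positive and 0.06 in Ccnb1-negative cells (Spearman rho 0.47 and -0.51). The part of that number in the difference was not tested. A median of 48 of the 109 genes was at 10 CPM in Ccnb1-positive cells (11 to 76), against 21 (14 to 48) in Ccnb1-negative cells. The groups overlap: 10 of 19 Ccnb1-positive cells lay above every Ccnb1-negative cell, and 2 of them, set 3 cells 29 and 39, lay below every Ccnb1-negative cell at 1.32 and 0.88. Those 2 cells also hold some of the least Ccnb1.

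The genes of DNA replication and of the G1 to S transition were less separated. Of 64 compared genes, 12 were higher (6.51% of all genes were) and 1 was lower (0.781% of all genes were), and the median was 1.24. The list of the replication fork and nucleotide supply had 7 of 24 higher (median 1.51), that of G1 and S cyclins, E2F and chromatin assembly 3 of 21 (1.2), and that of origins and the helicase 2 of 19 (0.82). The per-cell level over 65 genes was 4.0 ± 1.58 in Ccnb1-positive and 2.67 ± 1.74 in Ccnb1-negative cells, and the difference of 1.33 was smaller than the spread between cells. No Ccnb1-positive cell lay above every Ccnb1-negative cell. Within title sets the difference was 0.49, 2.98 and 0.63, and in cells that share a range of expressed genes it was 0.61. The replication level also went with the number of genes at 10 CPM (r = 0.59 over the 30 kept cells). That r was 0.70 in Ccnb1-positive and 0.12 in Ccnb1-negative cells (Spearman rho 0.64 and -0.25).

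Single genes of replication gave the same mixed picture. Mcm3, a subunit of the replicative helicase, had 0.0501, 215 and 1866 CPM in Ccnb1-positive cells against 0.0540, 0.158 and 531.5 CPM in Ccnb1-negative cells, a difference of 2.89 (-0.47 among cells with Sox2 or Pax6). It was at 10 CPM in 13 of 19 Ccnb1-positive and 4 of 11 Ccnb1-negative cells, so the ranges overlap. Rrm2, the small subunit of ribonucleotide reductase, was at 10 CPM in 14 of 19 Ccnb1-positive and 8 of 11 Ccnb1-negative cells (difference 1.30) and Pcna, the sliding clamp, in 14 Ccnb1-positive and 7 Ccnb1-negative cells (difference 1.25). Neither passed the size rule. Dbf4, the activator of the Cdc7 kinase that fires origins, was at 10 CPM in 10 Ccnb1-positive and 0 Ccnb1-negative cells, a difference of 3.01. Of all compared genes, 12.5% were at 10 CPM in no Ccnb1-negative cell. Dbf4 passed the filter of mean CPM only through the Ccnb1-positive cells, so its counts describe and support nothing. Rfc4 and Rfc2, subunits of the clamp loader, had differences of 3.49 and 3.39, and the histone chaperone Asf1b 3.59.

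Among the cyclins of G1, Ccnd1 was higher, with medians of 109 CPM in Ccnb1-positive and 0.133 CPM in Ccnb1-negative cells. It was at 10 CPM in 13 of 19 Ccnb1-positive and 3 of 11 Ccnb1-negative cells, a difference of 2.94. Ccnd2 had a difference of 2.56 that title set 2 reversed (-3.12). The S-phase cyclins Ccne1 and Ccne2 were each at 10 CPM in 4 of 19 Ccnb1-positive and 1 of 11 Ccnb1-negative cells. The gene of the retinoblastoma protein, Rb1, a brake on E2F, was the single lower member. It had at most 8.74 CPM in Ccnb1-positive cells, while 4 of 11 Ccnb1-negative cells were at 10 CPM and the highest had 378 CPM, a difference of -2.22. Rb1 passed the filter of mean CPM only through the Ccnb1-negative cells, so its counts describe and support nothing.

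**Figure D2:**
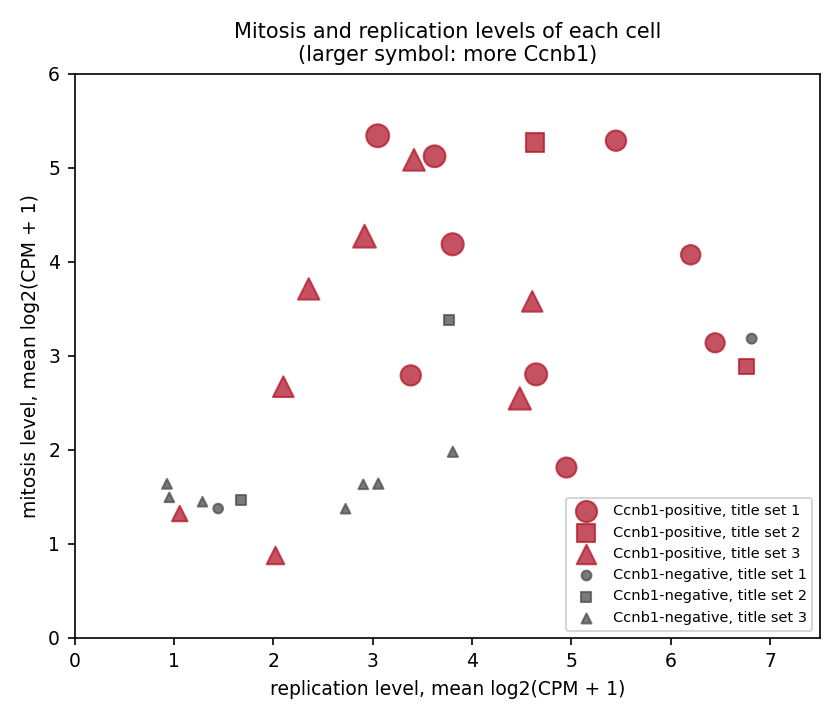
Replication level (horizontal) and mitosis level (vertical) of each kept cell as mean log2(CPM + 1), Ccnb1-positive cells in red and Ccnb1-negative cells in grey; symbol shape gives the title set and size grows with Ccnb1. Above a mitosis level of 3.38 there are only Ccnb1-positive cells, and the Ccnb1-negative cell farthest right is set 1 cell 20, with a replication level of 6.81.

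Within the 19 Ccnb1-positive cells, the amount of Ccnb1 had a positive correlation with the mitosis level and a weak negative one with the replication level. The correlation of log2(CPM + 1) of Ccnb1 with the mitosis level was r = 0.51 (Pearson) and rho = 0.41 (Spearman), and r was 0.39 without the 2 cells with the most extreme Ccnb1. With the replication level it was r = -0.13 and rho = -0.23, and r was -0.24 without those cells. The difference between these correlations was not tested. These points share their libraries, and Ccnb1 also went with depth (rho = 0.49 with log2 reads in genes), so the values are descriptions. Over 100 mitosis genes the median rho with Ccnb1 was 0.18 and 74 were positive. Over 64 replication genes it was -0.16 and 19 were positive.

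The genes ranked by rho came only from the mitosis and replication lists, so each is a cell cycle gene by choice. The largest rho among the 164 genes belonged to Birc5 (0.68), Ube2c, which encodes the ubiquitin-conjugating enzyme of the anaphase-promoting complex (0.65), and Ccnb2 (0.61). The smallest belonged to Ccne1 (-0.59), with Ccne2 and Cenph (-0.53 each) and Cdk4 (-0.50) next. Ccne1 was at 10 CPM in 4 Ccnb1-positive cells, set 1 cells 3, 6 and 14 and set 2 cell 25. Their replication level was 4.95 to 6.76, against 1.06 to 5.45 in the 15 others, and Ccne1 is itself 1 of the genes of that level. The 6 cells with Plk1 at 10 CPM had mitosis levels of 4.07 to 5.34, against 0.88 to 4.27 in the 13 others, and Plk1 is itself 1 of the genes of that level.

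**Figure D3:**
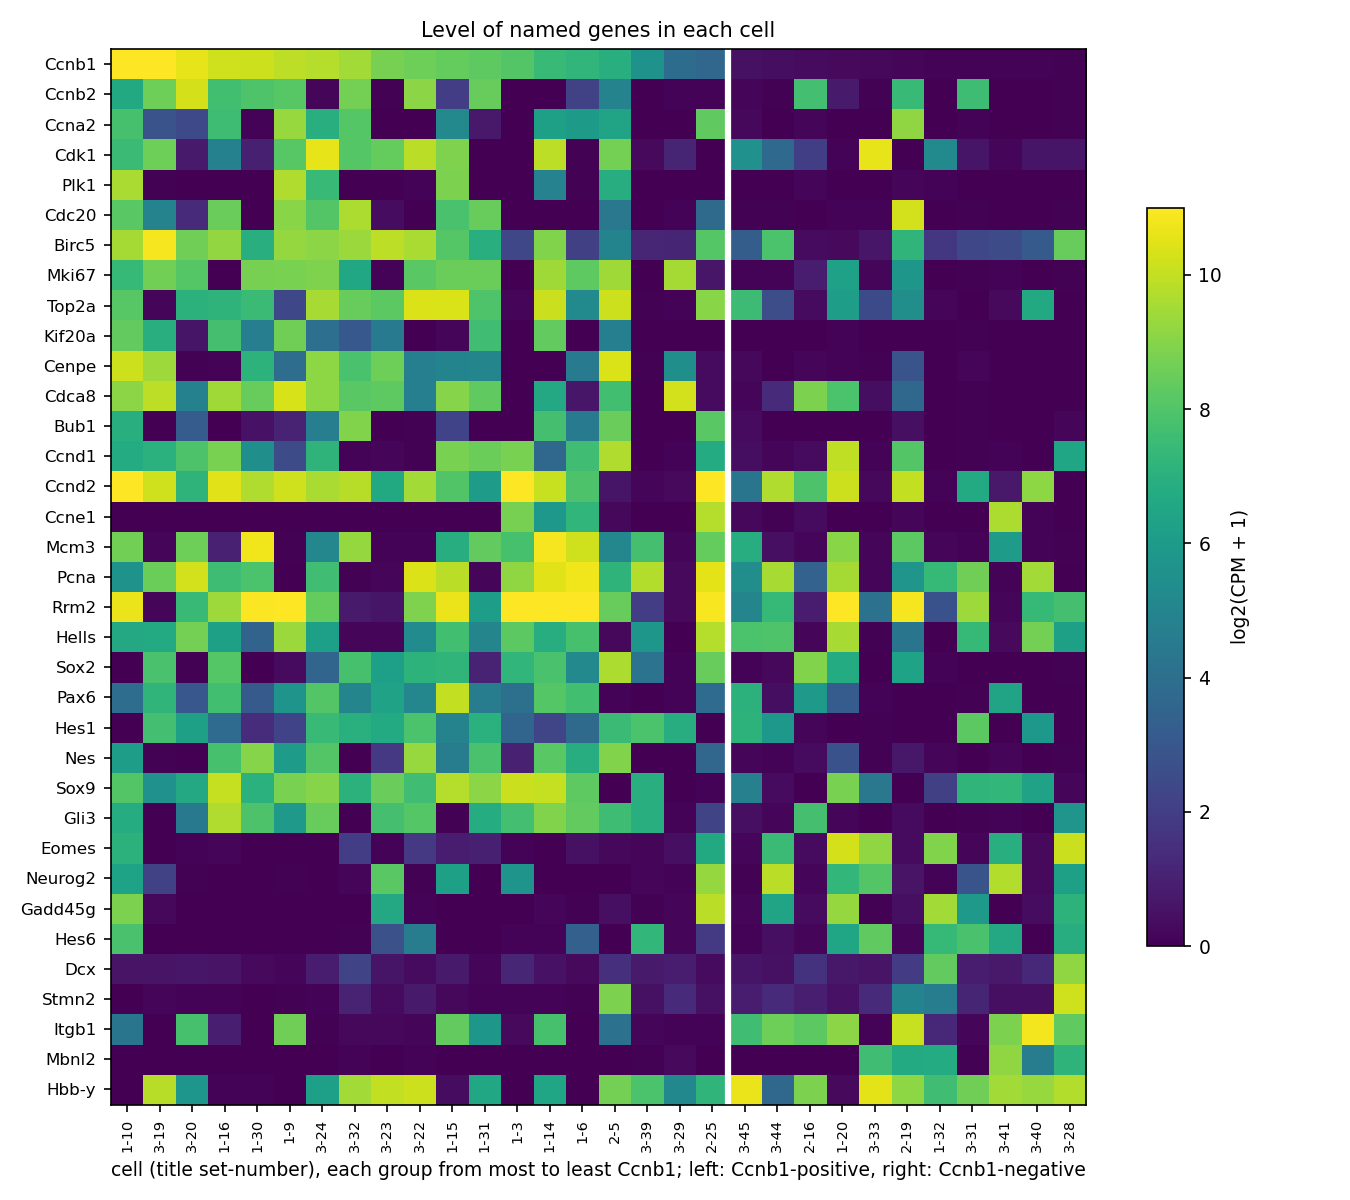
Level of 35 genes (rows) in 30 cells (columns) as log2(CPM + 1), with Ccnb1-positive cells left of the white line and Ccnb1-negative cells right of it, each ordered by Ccnb1. Ccne1 is seen in 4 of the Ccnb1-positive cells, and Eomes in 2 Ccnb1-positive and 6 Ccnb1-negative cells.

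Apical progenitor genes were higher in Ccnb1-positive cells, and the size of this depended on a subset of the Ccnb1-negative cells. Of 25 compared genes, 6 were higher (6.51% of all genes were) and 0 lower (0.781% of all genes were), with a median of 1.67. The 6 became 10 without either Ccnb1-positive cell of title set 2, and 12 and 13 without its Ccnb1-negative cells 16 and 19, when 725 to 750 of all genes were higher in place of 517. Nes, which encodes the intermediate filament nestin, had 0, 67.3 and 626 CPM in Ccnb1-positive cells against 0, 0.133 and 5.82 CPM in Ccnb1-negative cells (12 of 19 Ccnb1-positive and 0 of 11 Ccnb1-negative cells at 10 CPM, difference 4.28). Nes passed the filter of mean CPM only through the Ccnb1-positive cells, so its counts describe and support nothing. Of all compared genes, 12.5% were at 10 CPM in no Ccnb1-negative cell. Sox9, a transcription factor of progenitors, was at 10 CPM in 16 Ccnb1-positive and 6 Ccnb1-negative cells, a difference of 3.21. Sox2 was so in 13 Ccnb1-positive and 3 Ccnb1-negative cells (difference 2.79, but -0.53 without title set 3), the Notch target Hes1 in 14 Ccnb1-positive and 4 Ccnb1-negative cells (difference 2.49), and the inhibitor of differentiation Id4 in 11 Ccnb1-positive and 2 Ccnb1-negative cells (difference 3.06). Pax6 was at 10 CPM in 14 Ccnb1-positive and 3 Ccnb1-negative cells with a difference of 2.81, but title set 2 gave -1.0. Sox2 or Pax6 was at 10 CPM in 16 of 19 Ccnb1-positive and 5 of 11 Ccnb1-negative cells.

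The per-cell level over 26 apical progenitor genes was 4.44 ± 1.12 in Ccnb1-positive and 2.71 ± 1.01 in Ccnb1-negative cells, a difference of 1.74. It was 2.21, 0.44 and 1.5 within title sets 1, 2 and 3, and 12 of 19 Ccnb1-positive cells lay above every Ccnb1-negative cell. The apical progenitor level also went with the number of genes at 10 CPM (r = 0.68 over the 30 kept cells). That r was 0.69 in Ccnb1-positive and 0.09 in Ccnb1-negative cells (Spearman rho 0.60 and 0.14). Eomes, the marker of intermediate progenitors, was at 10 CPM in 2 of 19 Ccnb1-positive and 6 of 11 Ccnb1-negative cells. In the 6 Ccnb1-negative cells with Eomes the apical progenitor level was 1.43 to 3.25 (median 1.89), and in the 5 without it 2.61 to 4.43 (median 3.50). Leaving the cells that held Eomes out of both groups kept 17 Ccnb1-positive and 5 Ccnb1-negative cells. None of the 5 was of title set 1, and 1 of them, set 3 cell 40, held collagen genes. With that choice the level's difference was 1.03. The median over the genes of the list was then 0.69, below the all-gene median of 0.77, while the median over the mitosis genes was 1.78.

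Intermediate progenitor genes went the other way without passing the size rule. Of 13 compared genes 12 had a negative difference and the median was -2.08, yet 0 counted as lower. Without the demand for the same sign in every title set, 7 would have. Title set 2 decided this, since 6 counted as lower without its Ccnb1-positive cell 5 and 8 did without Ccnb1-positive cell 25 or Ccnb1-negative cells 16 or 19, when 92 to 124 of all genes were lower in place of 62. In the cells that share a range of expressed genes 9 did, when 267 of all genes were lower. Title set 2 was out of the sign rule in each of these cases. Without the cells that held Eomes the median of the list was 0.56. Eomes had 0, 0.153 and 133 CPM in Ccnb1-positive cells, against 0.112, 123 and 1235 CPM in Ccnb1-negative cells, and the ranges overlap. Its difference was -3.81, with -8.51 and -4.34 in title sets 1 and 3 and 3.14 in set 2, where 1 of 2 Ccnb1-positive cells held it. Neurog2, a proneural factor, was at 10 CPM in 5 of 19 Ccnb1-positive and 5 of 11 Ccnb1-negative cells, and in 5 of the 6 Ccnb1-negative cells with Eomes. Hes6, an antagonist of Hes1, had a difference of -2.55 (3 Ccnb1-positive and 6 Ccnb1-negative cells at 10 CPM). The growth arrest gene Gadd45g had a difference of -2.20 (3 Ccnb1-positive and 5 Ccnb1-negative cells). Like Eomes, both had negative differences in title sets 1 and 3 and a positive one in set 2.

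Neuronal genes gave no single direction beyond the 3 that the selection had used. The level over 23 neuronal maturation genes, leaving out Neurod6 and Tbr1, was 2.21 ± 0.79 in Ccnb1-positive and 2.54 ± 1.35 in Ccnb1-negative cells, and the difference of -0.32 was smaller than the spread between cells. It was -1.25, 0.49 and -0.66 within title sets. In the cells that share a range of expressed genes it was -0.65. Of 20 compared genes 2 were lower (0.781% of all genes were), 10 had a positive difference, and the median was -0.01. That median was -0.39 with TMMwsp scaling, -1.27 in the cells with a shared range and 1.15 without the cells that held Eomes, against all-gene medians of 0.39, 0.17 and 0.77. The lower genes were Map2, a microtubule protein of dendrites (difference -2.17, but 0.39 without the cells that held Eomes), and Rtn1, a reticulon of the endoplasmic reticulum (-2.24). Dcx, the microtubule protein of migrating neurons, had at most 3.74 CPM in Ccnb1-positive cells, but 328 and 576 CPM in 2 Ccnb1-negative cells. Those cells, set 1 cell 32 and set 3 cell 28, also held Eomes and had the highest neuronal levels of all kept cells (4.49 and 5.13). Dcx passed the filter of mean CPM only through the Ccnb1-negative cells, so its values describe and support nothing. Without the cells that held Dcx the difference of the neuronal level was 0.18, and without those that held Eomes it was 0.53.

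Genes of cell cycle exit and inhibition gave no call and no stable direction. Of 12 compared genes 0 were higher (6.51% of all genes were) and 0 lower (0.781% of all genes were), and the median was 0.08. It was -0.17 with TMMwsp scaling, -0.51 in the cells with a shared range of expressed genes and 1.0 without the cells that held Eomes. Within title sets 1 and 2 it was -0.93 and 0.97. Cdkn1b, the inhibitor p27, was at 10 CPM in 15 of 19 Ccnb1-positive and 7 of 11 Ccnb1-negative cells. Cdkn1c, the inhibitor p57, was so in 4 Ccnb1-positive and 3 Ccnb1-negative cells, and the antiproliferative gene Btg2 in 13 Ccnb1-positive and 7 Ccnb1-negative cells. The groups' ranges overlapped for each of these genes.

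**Figure D4:**
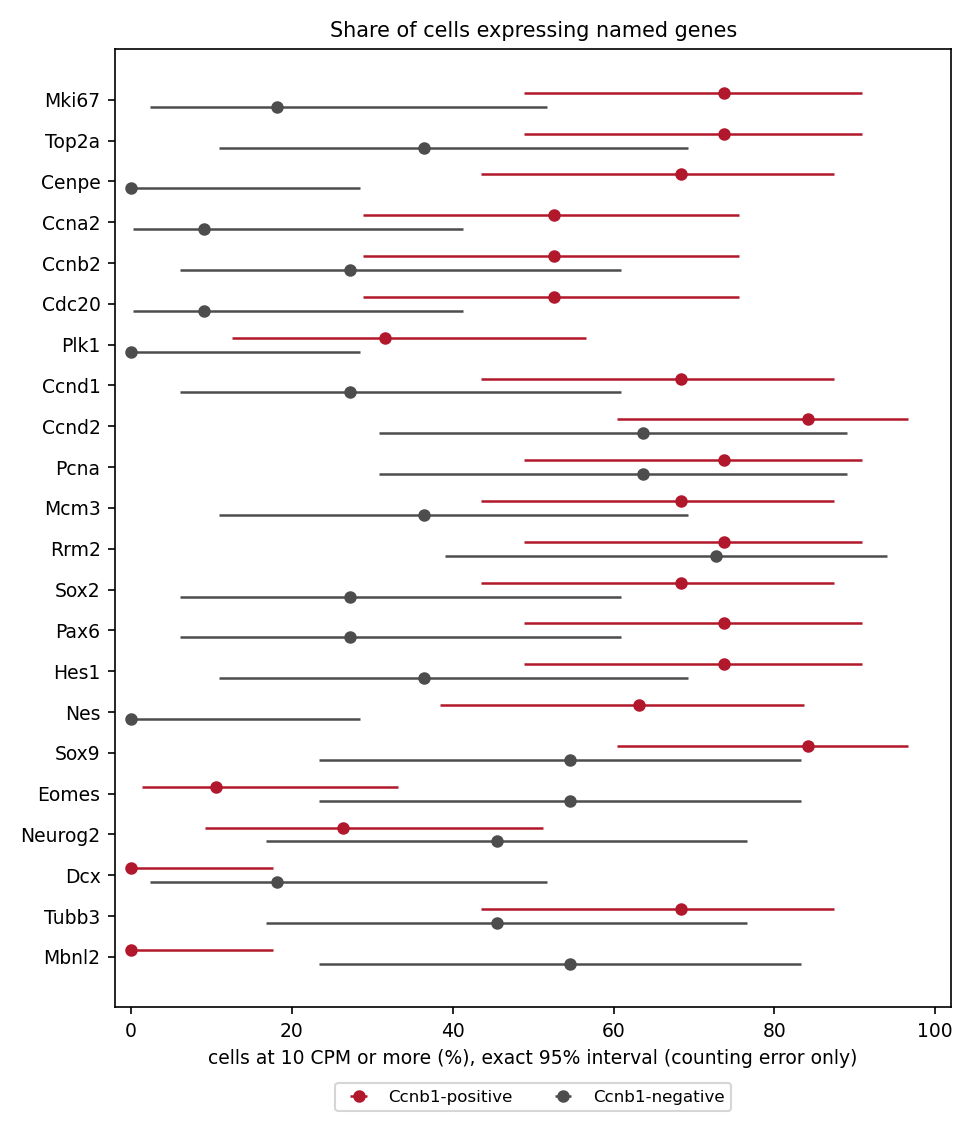
Share of Ccnb1-positive (red, upper) and Ccnb1-negative cells (grey, lower) with a gene at 10 CPM or more, with exact 95% intervals for counting error, over 19 and 11 cells. Cenpe, Plk1 and Nes stand at 0 of 11 Ccnb1-negative cells, and Mbnl2 and Dcx at 0 of 19 Ccnb1-positive cells. Each of these genes passed the filter of mean CPM only through the other group, so these shares describe and support nothing. Of all compared genes, 12.5% were at 10 CPM in no Ccnb1-negative cell.

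Lists that accompany division had medians between those of the mitosis genes and of all genes, and some of this depended on which cells entered. DNA repair by recombination had 2 of 16 genes higher, where 6.51% of all genes were, and its median was 1.15, or 0.58 in the cells that share a range of expressed genes. Brca2, which loads the recombination filament, was 1 of them. Histone variants and HMG proteins had 3 of 17 higher (median 1.09). Their median was 0.74 with TMMwsp scaling, and 0.77 without the cells that held Eomes, the same as the all-gene 0.77. Cbx5, the heterochromatin protein HP1 alpha, had medians of 1423 CPM in Ccnb1-positive and 189 CPM in Ccnb1-negative cells and a difference of 3.09, and Eed of the Polycomb complex one of 4.23. H2afz was high in both groups, with medians of 6331 CPM in Ccnb1-positive and 6982 CPM in Ccnb1-negative cells. Nuclear lamina and pore genes had 2 of 19 higher and a median of 0.91, which was 0.24 in the cells with a shared range, near the all-gene 0.17. Tubulins had 2 of 10 higher (median 1.31), of which Tubb4b had a difference of 4.04. Reads of tubulin paralogs cannot be assigned with certainty.

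Metabolic and housekeeping lists were mixed. Glycolysis had 2 of 14 genes higher (median 1.43), but the median was 0.44 in cells that share a range of expressed genes. Oxidative phosphorylation had 2 of 22 higher and 1 lower, where 0.781% of all genes were lower (median 0.06, and -0.26 with TMMwsp scaling). Ribosomal protein genes had 0 of 27 in either direction (median -0.28, and 0.11 in the cells with a shared range). Notch pathway genes had 1 of 14 higher (median 0.60), the Wnt pathway 1 of 17 (0.65), and apical junction and polarity genes 3 of 20 (0.71), where 6.51% of all genes were higher. In the cells with a shared range the medians were -0.49 for Notch, 0.62 for Wnt and -0.39 for junction and polarity genes, against 0.17 over all genes, so that the first and the last turned negative. In the Wnt list the higher gene was Sfrp1, a secreted inhibitor, with medians of 140 CPM in Ccnb1-positive and 0.372 CPM in Ccnb1-negative cells and a difference of 3.74.

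**Figure D5:**
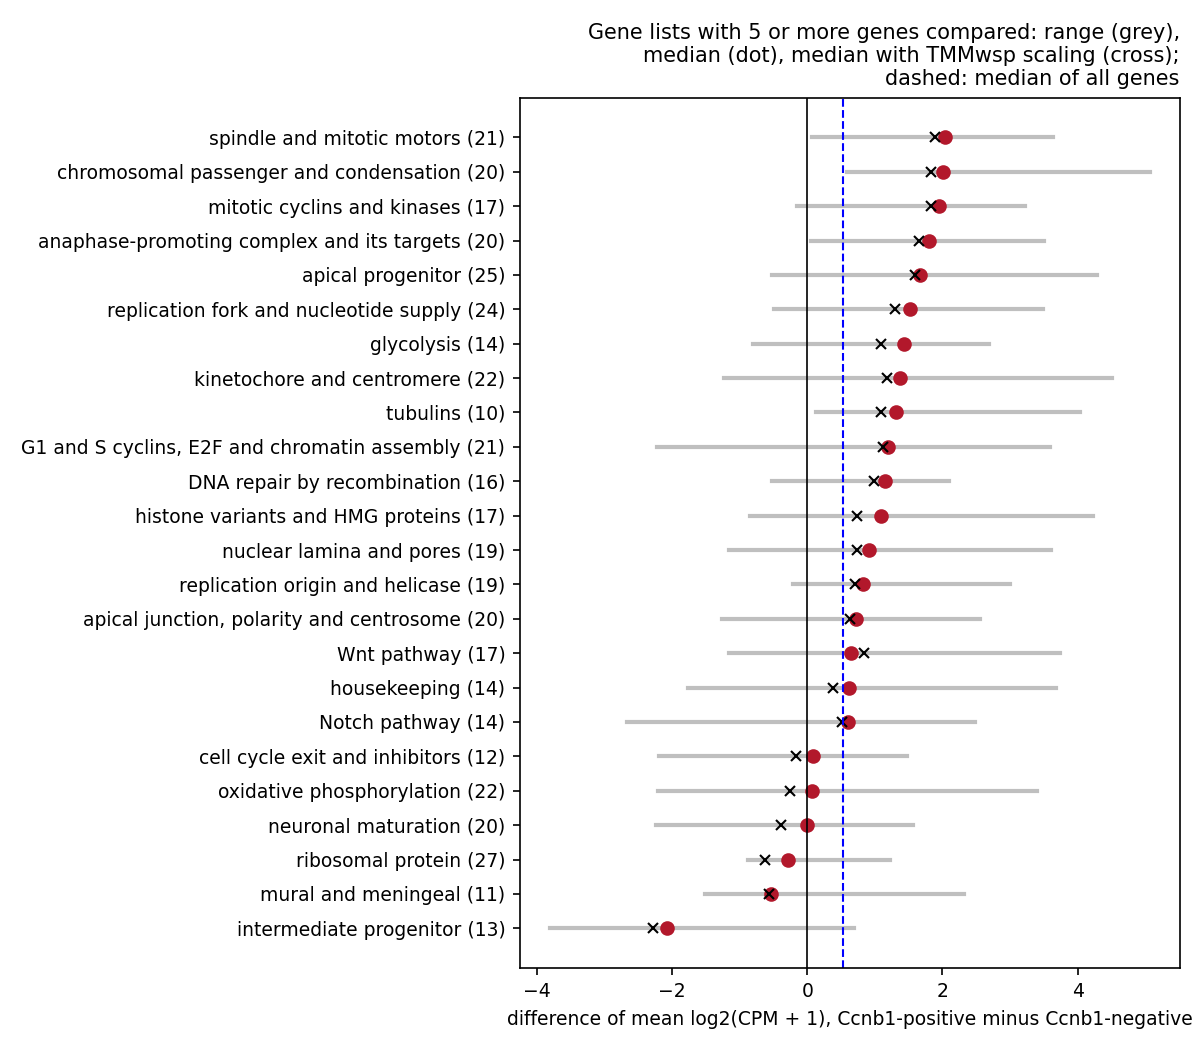
Difference of mean log2(CPM + 1), Ccnb1-positive minus Ccnb1-negative, for each list with 5 or more compared genes (number in brackets): range of the genes in grey, median as a dot, and median with TMMwsp scaling as a cross. The dashed line is the all-gene median of 0.52; the spindle list has the highest median (2.03) and the intermediate progenitor list the lowest (-2.08).

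Most genes that passed the size rule stood outside every list: 450 of the 517 higher and 57 of the 62 lower genes. The lists hold only 502 measured genes, against 7937 compared, so most compared genes stood outside them as well. These counts are therefore no result about the genes that passed. Among all genes that passed, the largest difference after Ccnb1 was that of Sc4mol, a methylsterol oxidase of cholesterol synthesis. It had 0.0890, 319 and 1678 CPM in Ccnb1-positive cells against 0, 0.298 and 615 CPM in Ccnb1-negative cells (17 of 19 Ccnb1-positive and 2 of 11 Ccnb1-negative cells at 10 CPM, difference 5.91, the same sign in every title set). Idi1, an isomerase of the same pathway, followed Mki67 with a difference of 4.85 (16 Ccnb1-positive and 3 Ccnb1-negative cells). Next were Pea15a, an ERK-binding phosphoprotein (4.70), Rnd3, a small GTPase (4.61), Fez1, an adaptor of axonal transport (4.58), the nucleolar gene Rsl1d1 (4.57), the mitochondrial translocase gene Timm21 (4.56) and Nsmce2, a SUMO ligase of the Smc5/6 complex (4.56). Gli3, the hedgehog transcription factor that patterns the dorsal telencephalon, was at 10 CPM in 14 Ccnb1-positive and 2 Ccnb1-negative cells, a difference of 4.33. Timm21 and the nucleoporin gene Aaas were each at 10 CPM in 12 of 19 Ccnb1-positive and 0 of 11 Ccnb1-negative cells. Of all compared genes, 12.5% were at 10 CPM in no Ccnb1-negative cell. With at least 6 Ccnb1-positive cells at that level the share was 2.14%. Both genes passed the filter of mean CPM only through the Ccnb1-positive cells, so these counts describe and support nothing.

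Among the lower genes, Itgb1, the beta 1 integrin, had 0, 0.191 and 394 CPM in Ccnb1-positive cells against 0.0851, 317 and 1780.2 CPM in Ccnb1-negative cells. Its difference of -4.06 was the largest among the lower genes, and the ranges overlap. The splicing regulator Mbnl2 reached at most 0.214 CPM in Ccnb1-positive cells and was at 10 CPM in 6 of 11 Ccnb1-negative cells (highest 579 CPM), a difference of -3.80. The neural splicing factor Srrm4 (2 Ccnb1-positive and 6 Ccnb1-negative cells, -3.52), the semaphorin receptor Nrp1 (2 Ccnb1-positive and 6 Ccnb1-negative cells, -3.31), the lysosomal hexosaminidase gene Hexa (2 Ccnb1-positive and 5 Ccnb1-negative cells, -3.17) and the calcium channel gene Itpr1 (1 Ccnb1-positive and 5 Ccnb1-negative cells, -2.95) went the same way. Mbnl2, Srrm4 and Itpr1 passed the filter of mean CPM only through the Ccnb1-negative cells, so their counts describe and support nothing. The share of all genes at 10 CPM in no Ccnb1-positive cell was not counted.

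One lower gene marks another cell type. Hbb-y, an embryonic beta-type globin of red cells, had 0, 73.0 and 1150.1 CPM in Ccnb1-positive cells against 0.215, 566 and 1623 CPM in Ccnb1-negative cells, a difference of -3.04. Within title sets the difference was -2.44, -1.03 and -0.80, and its level followed the sets, with medians of 0.0756 CPM in the Ccnb1-positive cells of set 1 and 476 CPM in those of set 3. The summed level of the 6 measured red cell genes was 0 to 1484.5 CPM (median 177) in Ccnb1-positive and 0.287 to 2114 CPM (median 744) in Ccnb1-negative cells. Slc4a1, an anion exchanger that marks red cells, was below 10 CPM in every kept cell. The part of free globin RNA in other differences was not tested.

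Cells of other types were rare among the kept cells. In 1 cell of each group several of the 5 measured collagen genes of the list of meninges and mural cells were at 10 CPM: 4 of them in set 3 cell 29, Ccnb1-positive, with 4701 CPM of the collagen gene Col3a1 and 5116 CPM of Lum, the gene of lumican, and all 5 in set 3 cell 40, Ccnb1-negative, with 3009 CPM of Col3a1 and 10018 CPM of Lum. A single collagen gene was at 10 CPM in set 1 cell 15, Ccnb1-positive (252 CPM of Col4a1), and in set 2 cell 19, Ccnb1-negative (43.8 CPM of Col4a2). No kept cell besides cells 29 and 40 of set 3 reached 1 CPM of Col3a1. Fn1, the gene of fibronectin and also on that list, was at 10 CPM in 15 Ccnb1-positive and 5 Ccnb1-negative cells. The 12 measured genes of that list summed to 0.947 to 16631 CPM (median 141) in Ccnb1-positive and 0.975 to 29141 CPM (median 34.6) in Ccnb1-negative cells. Without the 2 cells with Col3a1, chosen after seeing the data, 598 genes were higher and 76 lower, and the mitosis difference was 1.74. The 6 measured microglial genes summed to at most 8.49 CPM in Ccnb1-positive and 12.6 CPM in Ccnb1-negative cells. Few genes of the remaining lists could be compared. Of 3 interneuron genes 1 was higher (Meis2), and of 3 Cajal-Retzius, 2 endothelial and 1 oligodendrocyte precursor genes none passed the size rule. Over all compared genes 6.51% were higher and 0.781% were lower. The 6 measured genes of immediate early and dissociation stress summed to a median of 250.1 CPM in Ccnb1-positive and 437 CPM in Ccnb1-negative cells, and 1 of 3 compared (Jun) was higher. Of 14 housekeeping genes 1 (Tbp) was higher, near the share over all genes. Their median was 0.61, against 0.52 over all genes.

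Lack of Ccnb1 did not mean lack of other cell cycle transcripts. Of the Ccnb1-negative cells, 4 held Top2a at 10 CPM or more, and 2 of these, set 1 cell 20 and set 2 cell 19, also held Mki67 and had mitosis levels of 3.18 and 3.38, inside the range of the Ccnb1-positive cells. Set 1 cell 20 held 3 reads of Ccnb1, the highest replication level of all kept cells (6.81) and 1235 CPM of Eomes. The other 9 Ccnb1-negative cells had mitosis levels of 1.37 to 1.98. Over the Ccnb1-negative cells the mitosis and replication levels went together (r = 0.78, rho = 0.63, 11 cells), and over the Ccnb1-positive cells less so (r = 0.23, rho = 0.21, 19 cells). The difference between these correlations was not tested.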

How the data were processed

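One deposited table gives raw counts, whole-number read counts per gene of 65 cells over 11971 genes. The submitters' processing notes name HTSeq, TopHat2 and the build mm9, and the sources used here do not give the annotation. HTSeq counts were used as the authors deposited them. The kit does not keep strand, so overlapping genes and near-identical paralogs cannot be told apart with certainty. Depth in the kept cells was 7672145 to 32130629 reads in genes, and a read is not an independent molecule. No 2 kept cells held identical values (correlations of log2(CPM + 1) from 0.292 to 0.516).

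Values in CPM are counts over the total of the cell's column, logged with a pseudocount of 1. No p-value or standard error was made from cells, because each group is 1 pooled sample. Differences and the size rule of 2 were run on simulated counts with 8-fold changes planted in 200 genes. Those genes lay well above the 10 CPM filter, so the filter was not tested. Each simulated gene varied around 1 level per group, without genes that are on in some cells and off in others. The simulation therefore does not show how often the rule counts unchanged genes in these cells. Shares carry exact Clopper-Pearson 95% intervals. The members, the 31 lists (547 genes, 502 measured, 5 under an older symbol) and the alternatives were chosen with earlier results of these data known. Genes named in the text are fixed cell cycle and cell type genes, the 15 highest and 15 lowest by the size rule and up to 5 per list by size of difference. Python 3.11.15, pandas 2.3.3, scipy 1.17.1 and edgeR 4.0.16 (TMMwsp scaling factors only) were used. RefSeq promoters of GRCm38.p6 were matched by symbol, and no coordinate was moved between builds. Differences are also given within title sets, in case these are batches. Some genes are not reported here.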

Additional observations from a re-analysis of the deposited data

Results flagged for a closer look

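The cells left out for a neuronal gene were not free of Ccnb1, a signal in data that the comparison does not use. Of the 32 such cells, 6 had Ccnb1 at 10 CPM or more (18.8%, exact 95% interval 7.21 to 36.4%, counting error only), with 45.4 to 2846 CPM. Their mitosis level was 1.37 to 6.46 (median 2.89), against 0.63 to 3.49 (median 1.21) in the 26 other left-out cells, so the ranges overlap. The 3 of them with Neurod6 and Tbr1 both above 100 CPM, set 1 cells 5 and 8 and set 3 cell 26, had mitosis levels of 1.37 to 1.54 beside neuronal levels of 7.56 to 8.67. The other 3, set 1 cells 4, 7 and 26, had mitosis levels of 4.24 to 6.46 and held Dlx5 or Neurod6 but almost no Tbr1. With every neuronal cell kept, so that 25 Ccnb1-positive and 37 Ccnb1-negative cells were compared, 520 genes were higher and 54 lower. Whether these libraries hold RNA of more than 1 cell was not tested.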

How the results depend on the processing

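The mitosis, replication and apical progenitor differences kept their sign under the 15 alternatives that recompute them (1 of these, a Ccnb1 level of 5 CPM, leaves the groups as they are) and with each cell left out in turn (1.54 to 1.79, 1.15 to 1.74 and 1.61 to 1.92). The neuronal difference (-0.32; -0.52 to -0.06 with each cell left out) became 0.18 without cells with Dcx, 0.53 without cells with Eomes and -2.02 with no neurons left out. The count of higher genes (517; 494 to 750 with each cell left out) became 797 at a Ccnb1 level of 50 CPM, 118 with a pseudocount of 10, 1158 and 162 with size rules of 1 and 3, 855 with no sign rule, 68 by a share of cells 50 points apart and 820 and 1101 without title sets 2 and 3. It was 1000 in cells with Sox2 or Pax6, 1323 without cells with Eomes and 285 centred on the all-gene median, the last 2 chosen after seeing the data. The count of lower genes (62; 53 to 124 with each cell left out) became 6, 269, 7, 110 and 4 with that pseudocount, those size rules, no sign rule and that share. It was 162 by the mean within title sets, 140, 156 and 473 without title sets 1, 2 and 3, 157 by the ratio of mean CPM, 184 in cells with Sox2 or Pax6, 251 without cells with Eomes, 267 in the shared range of expressed genes, also chosen after seeing the data, and 133 centred.

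Title set 2 holds 2 cells of each group, and leaving out any of them takes it out of the sign rule. The lower count was then 93 and 92 without Ccnb1-positive set 2 cells 5 and 25, and 101 and 124 without Ccnb1-negative set 2 cells 16 and 19. The 28 higher mitosis genes became 39 to 45, the 6 higher apical progenitor genes 10 to 13 and the lower intermediate progenitor genes 6 to 8. A Ccnb1 level of 50 CPM and the shared range of expressed genes also took title set 2 out of the sign rule. Keeping only cells with Sox2 or Pax6 took out set 1, as did leaving out cells with Dcx or either Ccnb1-negative cell of set 1. Leaving out cells with Eomes took out sets 1 and 2. The counts under these choices come from a laxer sign rule as well as from other cells. Of 8043 values of 173 named genes, 8 moved by more than the spread between cells and 5 were counted as reversed. Only the 83 named genes past the size rule could be counted as reversed, and sign changes of the others were not counted. Of the 5, Mcm3 was -0.47 in cells with Sox2 or Pax6, and Mrpl47 was 0.19 and Meis2 -0.39 with no neurons left out. Also among them, Sox2 was -0.53 without title set 3 and Map2 0.39 without cells with Eomes. The cause of these changes was not tested. No paired analysis was possible because the cells carry no number that joins the groups. The limits are 11 Ccnb1-negative cells from 1 pool of embryos, a group rule that reads 1 transcript, and fewer expressed genes in Ccnb1-negative cells.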

Other observations

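Because Sc4mol and Idi1 led the genes outside the lists, the whole set of sterol synthesis enzymes was looked up after their values were seen, so its counts describe and support nothing. Of 19 enzymes 18 were measured and 16 compared. Of these 5 were higher (6.51% of all genes were) and 0 lower (0.781% of all genes were). A positive difference was seen in 14, with a median of 1.30 against 0.52 over all genes. The median was 1.48, 1.56 and 1.52 within title sets 1, 2 and 3, 1.24 with TMMwsp scaling and 1.40 in the cells that share a range of expressed genes. Fdft1, the squalene synthase, was at 10 CPM in 12 of 19 Ccnb1-positive and 1 of 11 Ccnb1-negative cells, a difference of 4.2. Nsdhl, a later enzyme of the pathway, was so in 7 Ccnb1-positive and 0 Ccnb1-negative cells, a difference of 2.65. Pmvk ran the other way (8 Ccnb1-positive and 7 Ccnb1-negative cells, -1.86), with opposite signs among title sets.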
